A study of Homo sapiens with 8 samples.

Results

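The genes described here are 2 lists that belong to immune recognition, one for the loading and display of peptides on MHC class I and one for the response to interferon. They were chosen by symbol with earlier results of these data known, so their shares beside those of all genes are descriptive only. In the SLAM-Seq values, 38 of the 39 listed genes were found among the 18388 genes, while 1 gene was not analysed here. Of these, 13 are for antigen presentation and 25 belong to the list called interferon-stimulated. That name is used for the whole list, which also holds IRF3, a factor that induces interferon genes. The cells were U-2OS Tet-ON, an osteosarcoma line that carries the tetracycline-regulated transactivator in every sample. They received 50 nM of control siRNA (siControl) or of siRNA against CGGBP1 (siCGGBP1), a protein that binds CGG repeats, for 72 h. In the last 60 min they were given 4-thiouridine (4sU), a uridine analogue that enters new RNA and is read as a T-to-C conversion. At 75 µM 4sU there were 3 libraries of siControl and 3 of siCGGBP1, and beside them a single siControl library each with 0 and 200 µM. All 8 library names carry DMSO, whose role the labels do not explain. The methods describe the replicates as biological, and the labels do not say whether they were separate cultures.

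MHC class I molecules consist of a heavy chain (HLA-B, HLA-C and others) and the light chain B2M, and they show peptides from inside the cell to cytotoxic T cells. The heavy chain folds in the endoplasmic reticulum with calnexin (CANX), calreticulin (CALR) and ERp57 (PDIA3), and tapasin (TAPBP) holds it at the TAP1-TAP2 transporter, which brings in peptides that ERAP1 and ERAP2 trim. Interferons act through STAT and IRF transcription factors on promoters with interferon-response elements, and many MHC class I pathway genes carry such elements too, which makes the interferon-stimulated genes the natural comparison for them.

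Promoter stretches are shown to place the members before their values. They come from RefSeq (GRCh38.p14), in windows from 250 bases before to 50 bases after each transcript start, for 32 of the 38 genes. IRF3, IFIT2, IFITM2, NLRC5, PDIA3 and HLA-E had no window and were not searched. The interferon-response pattern searched was GAAA, any 2 bases and GAAA again on either strand. It occurred in 3.57% of all 35116 windows and in at least 1 window of 20 of the 32 genes. A gene can have several windows, so shares of windows and of genes are not like for like, here and for the patterns below. The interferon-response pattern was found in 6 of 10 antigen presentation genes (B2M, TAP1, TAP2, TAPBP, ERAP1 and ERAP2) and in 14 of 22 interferon-stimulated genes. The stretches below stand for both lists, with the match in capitals, 5′ to 3′ along the gene, so that a match on the other strand reads TTTC.
B2M: aaaagGAAACTGAAAacggg
TAP1: ttcgaTTTCGCTTTCcccta
TAP2: gaagcGAAAGCGAAAgctgc
ISG15: aaaggGAAACCGAAActgaa
IFIT1: tttagTTTCACTTTCccctt
PARP9: caaagTTTCAGTTTCgcttc
They lie at chr15:44711374-44711393, chr6:32853818-32853837, chr6:32838783-32838802, chr1:1013385-1013404, chr10:89392502-89392521 and chr3:122564327-122564346.

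A different pattern, the element known for the response to stress in the endoplasmic reticulum (CCAAT, any 9 bases and CCACG, either strand), occurred in 0.0769% of windows. Among the 32 genes searched it was found for CANX and CALR, the 2 lectin chaperones, and for no other. The third chaperone of heavy chain folding, PDIA3, had no window and was not searched.
CANX: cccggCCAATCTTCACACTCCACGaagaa
CALR: ccacgCGTGGTCGACCATCATTGGtcggt
These stretches lie at chr5:179698773-179698801 and chr19:12938379-12938407, 151 and 225 bases before a transcript start. Paired CGG triplets (CGGCGG, either strand), searched because of the name and known binding of CGGBP1, occurred in 29.6% of windows and in at least 1 window of 14 of the 32 genes, among them CANX, CALR, STAT2, TAP1, TAP2, PARP9 and ISG15. The interferon pattern TTC, any 3 bases and GAA occurred in 7.66% of windows and for 9 of the 32 genes, 8 of them interferon-stimulated, and IRF1, IRF9 and PARP14 were among these. A match is a run of letters and not a measured binding site.

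Between 10127519 and 14221516 reads were counted in the 6 libraries with 75 µM 4sU. CGGBP1, the target of the siRNA, had 1236, 1081 and 885 normalized reads in the siControl libraries and 211, 116 and 360 in the siCGGBP1 libraries, and it fell by 2.22 on the log2 scale (standard error 0.39, adjusted p = 0.0138). Of the markers of the line's mesenchymal origin, COL1A1 (6939 to 23470 normalized reads), SPARC (6034 to 21800) and VIM (26970 to 37770) were abundant, RUNX2 reached 117 to 382, and the osteoblast markers ALPL, SP7 and BGLAP stayed at or under 44.8. KRT8 (1358 to 2592) and EPCAM (52.8 to 151) were detected and CDH1 was at 0. Of 5 markers of leukocytes, LYZ and CD3E were at 0 in every library, and PTPRC, CD74 and HLA-DRA did not exceed 7.88, 3.94 and 14.8 normalized reads.

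Total RNA could be tested for 30 of the 38 genes, those for which 3 or more of the 6 libraries held 100 reads or more. These were 12 of 13 antigen presentation genes and 18 of 25 interferon-stimulated genes. After CGGBP1 knockdown the heavy chain gene HLA-B rose 2.13-fold and the chaperone gene CANX fell to 0.416 times its control level, and these were the only members called, at an adjusted p under 0.05 with a change of more than 2-fold. Called upward were thus 1 of 12 antigen presentation genes and 0 of 18 interferon-stimulated genes, against 0.454% of all 10138 tested genes, and called downward 1 of 12 and 0 of 18, against 0.957%. In both lists most genes lay above their control level without passing the test. The log2 fold change was above 0 for 9 of 12 antigen presentation genes (median 0.55) and for 11 of 18 interferon-stimulated genes (median 0.44), where the median over all tested genes was 0.00.

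HLA-B (ENSG00000234745, chr6:31353872-31367067 of GRCh38, minus strand) had 2820, 2464 and 2974 normalized reads in the siControl libraries and 6329, 4827 and 6417 in the siCGGBP1 libraries. Every siCGGBP1 library was above every siControl library. The log2 fold change was 1.09 (standard error 0.19, 95% interval 0.69 to 1.49, adjusted p = 0.0133 by edgeR's quasi-likelihood test). The call was lost without siCGGBP1 replicate 1 (adjusted p = 0.085) or siControl replicate 2 (adjusted p = 0.0643), while the log2 fold change remained 1.03 and 1.01.

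HLA-C (chr6:31268749-31272130), the second classical heavy chain among the members, had 1193, 1252 and 1602 normalized reads in siControl and 2440, 2541 and 1920 in siCGGBP1. The groups did not overlap, and the difference in log2 was 0.77 (95% interval 0.30 to 1.24, adjusted p = 0.0946), short of the threshold. HLA-E, the nonclassical heavy chain that is bound by receptors of natural killer cells, had 933, 901 and 553 normalized reads in siControl and 991, 1345 and 623 in siCGGBP1. These ranges overlapped widely (log2 fold change 0.31, 95% interval -0.38 to 1.00), and replicate 3 was the lowest library in both groups. HLA genes resemble each other, and their reads were in part counted in fractions, so a read of one may have been counted for another.

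Of 85 further genes of the interferon and MHC class I pathways, 56 were tested. Their median log2 fold change was 0.06, with 32 of 56 above 0. In all 9 pairs of libraries, 11 of 56 were higher in siCGGBP1 and 2 lower, beside 12.1% of all tested genes in each direction.

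B2M (ENSG00000166710, chr15:44711358-44718851), the light chain of all MHC class I molecules, had 4816, 3190 and 4984 normalized reads in siControl. The siCGGBP1 libraries held 8672, 5092 and 8073. Replicate 2 was the lowest library in both groups, and the lowest siCGGBP1 library lay just above the highest siControl library. The difference of 0.75 in log2 (95% interval 0.24 to 1.26) had an adjusted p of 0.129.

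TAP1 and TAP2 form the peptide transporter. TAP1 had 258, 216 and 335 normalized reads in siControl and 455, 520 and 387 in siCGGBP1, without overlap (log2 fold change 0.75, 95% interval -0.01 to 1.51, adjusted p = 0.314). TAP2 had 501, 655 and 674 in siControl and 733, 673 and 1245 in siCGGBP1, and 8 of the 9 pairs of libraries were higher in siCGGBP1 (log2 fold change 0.53, 95% interval -0.12 to 1.19, adjusted p = 0.413), though the log2 fold change was 0.21 without siCGGBP1 replicate 3. Tapasin, which joins the transporter to the heavy chain, showed the larger difference. TAPBP had 1074, 1965 and 1376 normalized reads in siControl and 1973, 3301 and 2915 in siCGGBP1, a log2 fold change of 0.89 (95% interval 0.32 to 1.47, adjusted p = 0.110), with the closest libraries of the groups at 1965 and 1973.

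The aminopeptidase gene ERAP1 had 176, 246 and 209 normalized reads in siControl and 253, 334 and 345 in siCGGBP1. The groups did not overlap, yet the interval of the log2 difference ran from -0.32 to 1.44 (adjusted p = 0.548). NLRC5, the transactivator of MHC class I genes, was near the limit of detection, with 90.7, 115 and 112 normalized reads in siControl and 158, 121 and 109 in siCGGBP1. The log2 difference had a 95% interval of -1.10 to 1.67, which holds more than 2-fold in both directions.

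The 3 chaperones of heavy chain folding went the other way, each with a log2 fold change below 0. CANX (ENSG00000127022, chr5:179678628-179731641, plus strand) had 5740, 6263 and 6473 normalized reads in siControl and 2669, 2392 and 2627 in siCGGBP1. The groups were far apart, and CANX fell by 1.27 on the log2 scale (standard error 0.17, 95% interval -1.63 to -0.90, adjusted p = 0.0035). It was called in every alternative that was run.

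PDIA3, the disulfide isomerase that works with both lectin chaperones, had 1073, 1040 and 1066 normalized reads in siControl and 583, 532 and 250 in siCGGBP1. All siCGGBP1 libraries lay below all siControl libraries, with a log2 fold change of -1.22 (95% interval -1.92 to -0.52) and an adjusted p of 0.0825. CALR, the soluble relative of calnexin, was the other searched member with an endoplasmic reticulum stress pattern, while PDIA3 was not searched. CALR had 6541, 5949 and 5100 in siControl and 5168, 4499 and 5436 in siCGGBP1. Its groups overlapped, and the log2 fold change of -0.22 had an interval of -0.60 to 0.16.

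**Figure D1:**
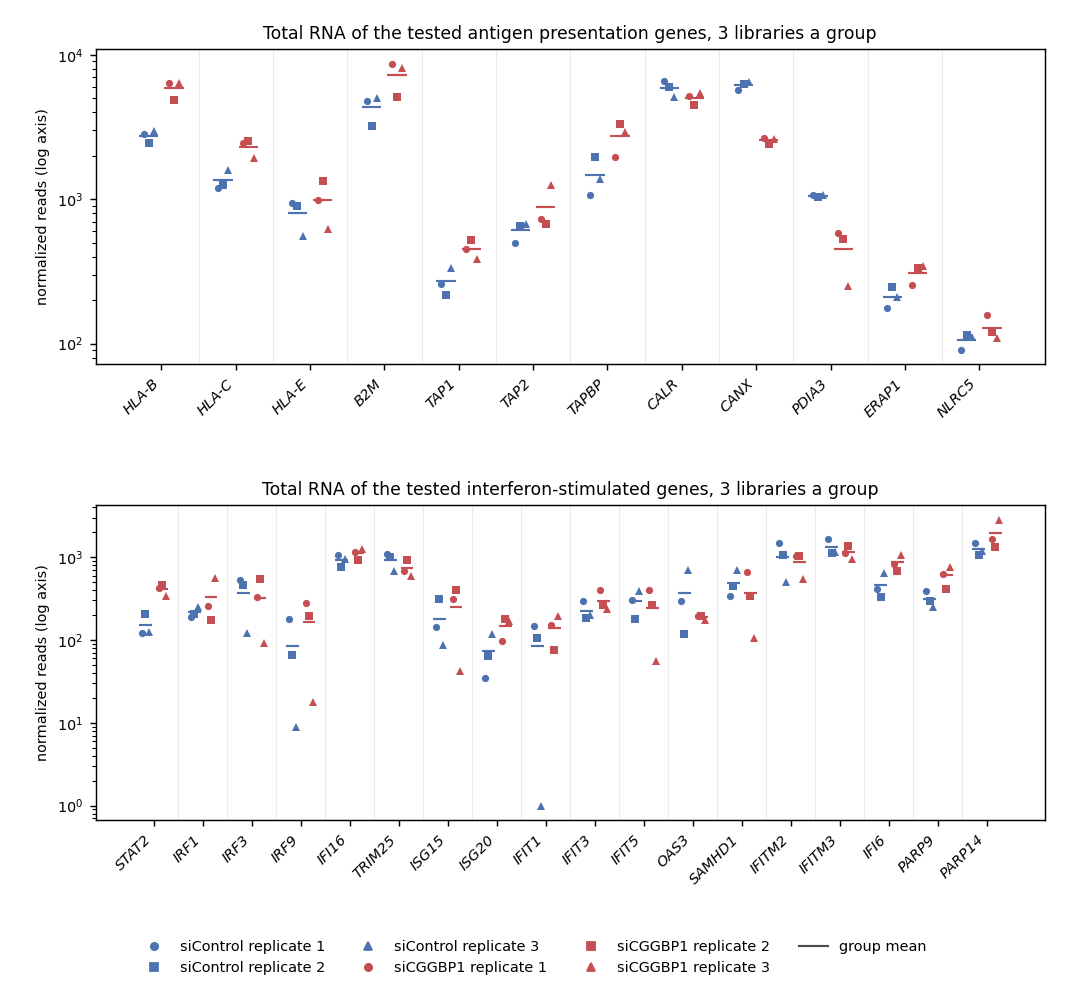
Normalized reads of total RNA (log axis) for the 12 tested antigen presentation genes (top) and the 18 tested interferon-stimulated genes (bottom), 1 point per library, siControl in blue and siCGGBP1 in red, with horizontal lines at the group means. The red points of HLA-B, HLA-C, B2M, TAP1, TAPBP and ERAP1 all lie above the blue points, those of CANX and PDIA3 all lie below, and replicate 3 (triangles) is low in both groups for IRF9 and ISG15.

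Counted over the antigen presentation genes, 6 of 12 were higher and 2 of 12 lower in siCGGBP1 in all 9 pairs of libraries. Over all tested genes, 12.1% were higher in all pairs and 12.1% lower. At an unadjusted p under 0.05, 4 of 12 were higher and 2 lower, against 8.1% and 8.3% of all tested genes. DESeq2's Wald test under the same rule called HLA-B and STAT2 upward (1.64% of all genes) and CANX and PDIA3 downward (2.01%). HLA-C (adjusted p = 0.0198), TAPBP (0.0226) and B2M (0.025) also passed an adjusted p of 0.05 with DESeq2, at less than 2-fold.

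Among the regulators of the interferon response, STAT2 had the largest difference. STAT2, a subunit of the complex that carries the type I interferon signal to the nucleus, had 122, 205 and 126 normalized reads in siControl and 423, 456 and 342 in siCGGBP1. The groups were well apart (log2 fold change 1.42, 95% interval 0.53 to 2.32, adjusted p = 0.104). IRF9, the DNA-binding partner of STAT2 in this complex, had 177, 65.6 and 8.98 in siControl and 283, 194 and 18.0 in siCGGBP1. Replicate 3 was the lowest library in both groups, and the log2 difference of 0.98 had an interval of -1.28 to 3.24.

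IRF1, an early target of interferon gamma that itself acts on MHC class I promoters, had 192, 205 and 247 normalized reads in siControl and 257, 172 and 568 in siCGGBP1. The difference rested on siCGGBP1 replicate 3, and the log2 fold change of 0.63 went to 0.00 without it. IRF3, which induces interferon genes after virus sensing, had 536, 461 and 122 in siControl and 330, 539 and 91.5 in siCGGBP1 (log2 fold change -0.22, 95% interval -1.56 to 1.12), with replicate 3 again lowest in both.

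The nuclear DNA sensor IFI16 had 1066, 770 and 946 normalized reads in siControl and 1153, 934 and 1261 in siCGGBP1, with a log2 fold change of 0.27 (95% interval -0.26 to 0.80). TRIM25, a ubiquitin ligase in RNA sensing, had 1091, 1001 and 689 in siControl and 682, 927 and 594 in siCGGBP1 (log2 fold change -0.34, 95% interval -0.95 to 0.28). Neither sensor moved beyond the spread of its libraries, and both intervals lay within a 2-fold difference in either direction.

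The effectors that block RNA or virus entry gave no called gene. IFIT1, IFIT3 and IFIT5, proteins that bind viral RNA, had log2 fold changes of 0.74, 0.41 and -0.28, each with an interval that spans 0. IFIT1 had 147, 105 and 0.997 normalized reads in siControl and 153, 75.3 and 195 in siCGGBP1, and without siControl replicate 3 its log2 fold change was 0.16. ISG15, a ubiquitin-like protein, had 144, 312 and 86.6 in siControl and 317, 398 and 42.5 in siCGGBP1 (log2 fold change 0.48, 95% interval -1.09 to 2.05).

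ISG20, an RNA exonuclease, had 34.5, 64.6 and 120 normalized reads in siControl and 98.3, 178 and 170 in siCGGBP1, higher in 8 of 9 pairs (log2 fold change 1.03, 95% interval -0.55 to 2.60). OAS3, which makes the activator of RNase L, had 298, 117 and 699 in siControl and 196, 196 and 175 in siCGGBP1, and its log2 fold change of -0.97 had an interval of -2.18 to 0.23 and was -0.13 without siControl replicate 3. SAMHD1, which degrades nucleotides needed for virus replication, had 338, 446 and 692 in siControl and 666, 335 and 106 in siCGGBP1. In these 3 genes the groups overlapped, and siCGGBP1 replicate 3 was the lowest library for SAMHD1.

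The membrane proteins split. IFI6, a mitochondrial and endoplasmic reticulum protein, had 411, 329 and 636 normalized reads in siControl and 829, 685 and 1071 in siCGGBP1, without overlap (log2 fold change 0.91, 95% interval 0.22 to 1.60, adjusted p = 0.174). IFITM2 and IFITM3, which restrict the entry of viruses and whose reads were in part counted in fractions, had log2 fold changes of -0.22 (95% interval -1.03 to 0.60) and -0.19 (95% interval -0.72 to 0.34). IFITM3 had 1639, 1137 and 1149 in siControl and 1128, 1356 and 956 in siCGGBP1.

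PARP9 and PARP14, ADP-ribosyltransferase family members, both had log2 fold changes above 0. PARP9 had 393, 296 and 248 normalized reads in siControl and 619, 417 and 770 in siCGGBP1, without overlap (log2 fold change 0.95, 95% interval 0.20 to 1.70, adjusted p = 0.191). PARP14 had 1493, 1071 and 1176 in siControl and 1638, 1343 and 2824 in siCGGBP1, higher in 8 of 9 pairs (log2 fold change 0.64, 95% interval 0.03 to 1.24, adjusted p = 0.284), and without siCGGBP1 replicate 3 the log2 fold change was 0.26.

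**Figure D2:**
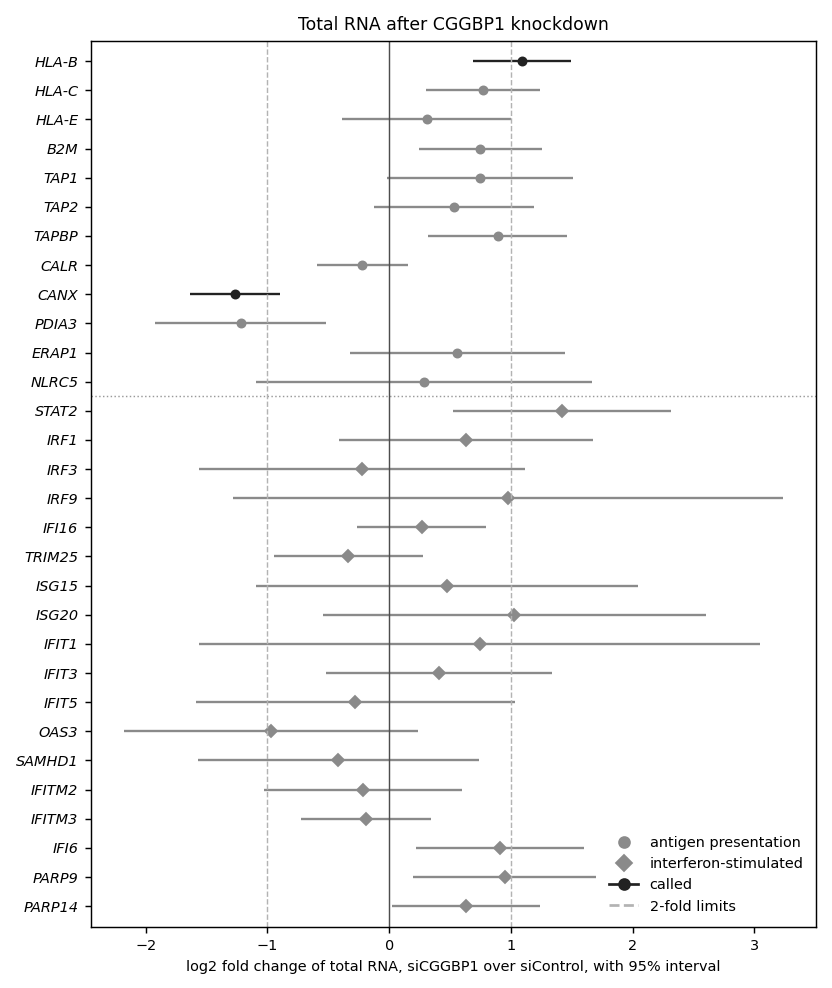
Log2 fold change of total RNA (siCGGBP1 over siControl) with its 95% interval for the 30 tested genes, antigen presentation above the dotted line (circles) and interferon-stimulated below it (diamonds), called genes in black and dashed lines at 2-fold. HLA-B (1.09) and CANX (-1.27) are the called genes, and the interferon-stimulated genes have the wider intervals, up to -1.56 to 3.05 for IFIT1.

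Of the interferon-stimulated genes, 3 of 18 (STAT2, IFI6 and PARP9) were higher in siCGGBP1 in all 9 pairs and 0 were lower, beside the 12.1% of all tested genes in each direction. At an unadjusted p under 0.05, 4 of 18 were higher (8.1% of all genes) and 0 lower (8.3%). Their standard errors were larger than those of the antigen presentation genes, with a median of 0.46 against 0.28 on the log2 scale. In 5 of the 18 (IRF3, IRF9, TRIM25, ISG15 and IFITM2), or 27.8%, replicate 3 was the lowest library of both groups, as it was for 1 of 12 antigen presentation genes and 17.9% of all tested genes. Of the 15 tested genes with the interferon-response pattern in a promoter window, 12 had a log2 fold change above 0 (median 0.63) and 0 were called. Of all 30 tested members, 20 (66.7%) were above 0 (median 0.505), beside 50.1% of all tested genes. Of the 12 with paired CGG triplets, 8 were above 0 (median 0.55) and CANX was called, and all 4 with the TTC and GAA pattern were above 0 (median 0.69) with 0 called. These groups share genes and are parts of the 30 members, and a link between a pattern and a change was not tested.

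Total RNA was too low to judge for 8 genes. These were ERAP2, which trims peptides with ERAP1, and the interferon-stimulated genes IFIH1, IFIT2, OAS1, MX1, IFITM1, IFI27 and IFI35. IFIT2 came closest to the limit, with 38 to 149 reads. ERAP2 had between 1 and 86 reads, IFIH1 between 0 and 64.5, and OAS1 and IFI27 no more than 44.9 and 44. MX1, IFITM1 and IFI35, of which MX1 is a classical indicator of interferon exposure, had at most 25, 14 and 4 reads in any of the 6 libraries. A gene that reached 100 reads in all 3 siCGGBP1 libraries would have been tested. In an edgeR fit with no filter the adjusted p of these 8 genes was 0.633 or more, so no change was shown, and smaller changes could go unseen at this depth.

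The siControl libraries with 0 and 200 µM 4sU give a second look at the control level. They differ from the others in 4sU dose, which cannot be told apart from differences between libraries with 1 library per dose. For CANX they held 6403 and 5806 normalized reads and for PDIA3 1241 and 1088, with the siControl libraries and above every siCGGBP1 library. For HLA-B they held 4313 and 4257, above the siControl libraries at 75 µM and below the siCGGBP1 libraries.

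For B2M they held 7636 and 7119 and for STAT2 397 and 382, inside the range of the siCGGBP1 libraries. HLA-C had 1219 without 4sU, at the siControl level, and 2096 with 200 µM, inside the siCGGBP1 range. IFI6 had 857 and 639, and TAPBP 1570 and 2190. PARP9 had 128 and 168 and TAP1 294 and 376, below every siCGGBP1 library.

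Of the 9 members that were higher in siCGGBP1 than in the 3 siControl libraries, 3 (HLA-B, TAP1 and PARP9), or 33.3%, were also higher than all 5. Over all tested genes this share was 51.6%. Both members that were lower (CANX and PDIA3) were also lower than all 5, beside 58.6% of all tested genes. When the 2 libraries were added to the control group, an alternative chosen after seeing the data, CANX (log2 fold change -1.25, adjusted p = 0.000956) and PDIA3 (-1.27, adjusted p = 0.0349) were called. HLA-B (0.80, adjusted p = 0.0532) was not. The differences of B2M and STAT2 shrank to 0.40 and 0.73, and the median of the interferon-stimulated genes went from 0.44 to 0.05, that of the antigen presentation genes from 0.55 to 0.45. These fits compare relative levels in bulk RNA, in which fewer cells that express a gene and less RNA per cell cannot be told apart.

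**Figure D3:**
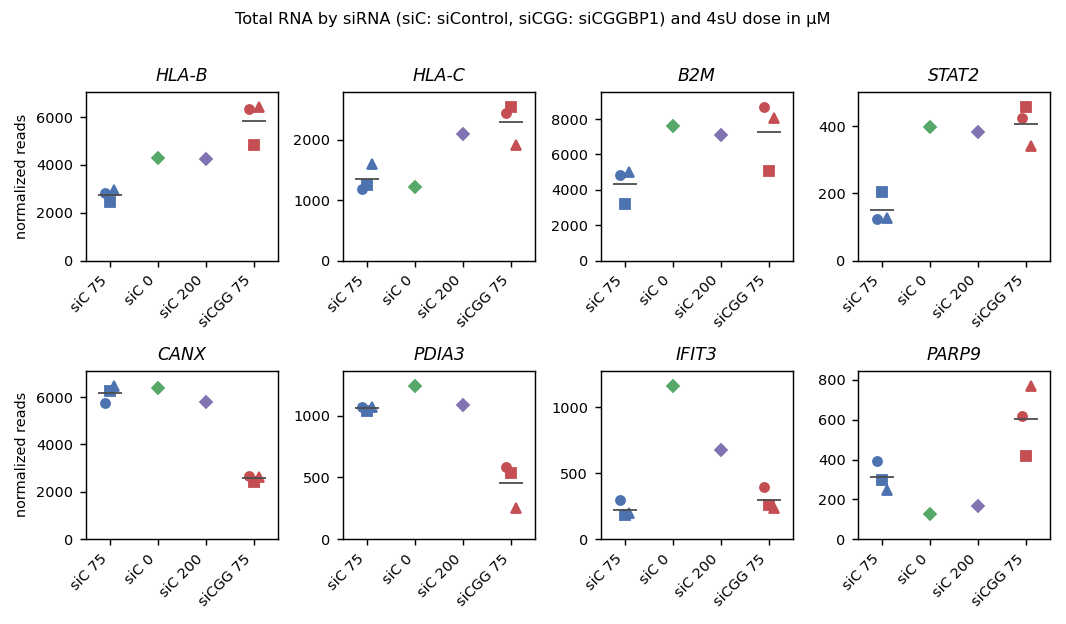
Normalized reads of total RNA for 8 genes at 75, 0 and 200 µM 4sU under siControl and at 75 µM under siCGGBP1, 1 point per library, with lines at the means of the groups of 3. For CANX and PDIA3 all 5 siControl libraries lie above siCGGBP1, while for B2M and STAT2 the siControl libraries with 0 and 200 µM lie among the siCGGBP1 libraries.

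New RNA could be judged for fewer genes. Judged were the 15 members with at least 10 conversions in at least 3 of the 6 libraries and a conversion rate in siControl outside the 95% interval of the library without 4sU. Of the 23 others, 19 had too few conversions and 8 had been too low in total RNA, most of them in both respects. The last 3 (IFI16, IFIT3 and IFITM2) passed both of these limits but had a siControl rate within that background. In siCGGBP1 their rates were 0.325, 0.430 and 0.0542 conversions per 100 covered T. The upper limits of the background were 0.127, 0.124 and 0.0474, so the rule set these genes aside by their siControl rate alone. For IFIT3 the rate of siCGGBP1 replicate 3 was 0.0181. The 15 were HLA-B, HLA-C, HLA-E, B2M, TAP2, TAPBP, CALR, CANX and PDIA3, and of the interferon-stimulated genes IRF1, TRIM25, IFIT5, IFI6, PARP9 and PARP14. None of the 30 tested members was called in new RNA by edgeR, where 0.0493% of all tested genes were. Of the 30, 1 had an unadjusted p under 0.05, against 319 of 10138 genes (3.15%). The absence of calls does not show that new RNA was unchanged, and only 15 of these 30 could be judged. For HLA-B the log2 fold change of new RNA was 1.13, near that of its total RNA, with an unadjusted p of 0.466.

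Pooled over the 38 genes, the siControl libraries held 0.150, 0.169 and 0.0762 conversions per 100 covered T and the siCGGBP1 libraries 0.175, 0.164 and 0.153. The library without 4sU held 0.0424. All 6 labelled libraries lay above that background, and siControl replicate 3 was the nearest to it. In replicate 3 of both groups, 57.4% and 59.8% of all tested genes had an estimated new-to-total ratio of 0, against 22.5% to 31.9% in the other libraries.

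HLA-B had conversion counts of 171.5, 168 and 13 under siControl, compared with 374, 374.5 and 201.5 under siCGGBP1. These counts are not scaled for depth. The conversion rate per covered T was close between groups in replicates 1 and 2, at 0.181 and 0.176 per 100 T in siControl and 0.186 and 0.201 in siCGGBP1. In replicate 3 it was 0.0111 and 0.0689, around the 0.0382 found without 4sU. The new-to-total ratio of HLA-B was accordingly 3.4%, 3.0% and 0.00% in siControl and 3.11%, 3.63% and 0.00% in siCGGBP1.

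CANX, whose total RNA fell, had new-to-total ratios of 0.93%, 2.07% and 0.00% in siControl and 1.36%, 2.32% and 5.44% in siCGGBP1. Its conversions numbered 169, 392 and 172.5 in siControl and 109, 153 and 317.5 in siCGGBP1. In reads multiplied by the ratio, the log2 difference of new RNA was 0.37 (unadjusted p = 0.838 by edgeR). In conversion counts, an alternative measure, the groups overlapped and the log2 difference was -0.47 with a standard error of 0.78. Neither a fall like that of total RNA nor its absence could be shown. CALR had ratios of 1.21%, 0.68% and 0.00% in siControl and 1.80%, 2.91% and 1.43% in siCGGBP1.

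B2M was close to the background. Its conversions per 100 covered T were 0.0795 in siControl and 0.0764 in siCGGBP1 against 0.0530 without 4sU (95% interval 0.0471 to 0.0594), and its ratio lay between 0.00% and 2.09% in the 6 libraries. PDIA3 had ratios of 0.00%, 2.18% and 0.00% in siControl and 0.00%, 0.00% and 35.6% in siCGGBP1, and TRIM25 10.1%, 10.1% and 0.00% against 0.00%, 0.00% and 51.0%. In both genes siCGGBP1 replicate 3 alone carried the high value, and it is one of the libraries in which most genes are at 0.

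IRF1 stood apart from the other judged genes by its share of new RNA. Its ratio was 39.3%, 49.6% and 67.7% in siControl and 54.6%, 25.3% and 22.5% in siCGGBP1, with 0 conversions in the library without 4sU. The ratio of siCGGBP1 replicate 1 lay within the range of siControl, so the groups overlapped. The other judged genes had median ratios over the 6 libraries of no more than 7.5%, reached by PARP9 with 6.24%, 9.90% and 0.00% in siControl and 5.59%, 10.8% and 8.76% in siCGGBP1. PARP14 had 6.19%, 3.88% and 6.06% in siControl and 0.18%, 2.96% and 15.3% in siCGGBP1. IFIT5 had 4.58%, 11.5% and 0.00% against 14.0%, 0.00% and 0.00%. IFI6 was at 15.8% in siControl replicate 3 and at 0.00% in the other 5 libraries, and it was the gene with an unadjusted p under 0.05 in edgeR. High ratios also occurred among genes too low in total RNA to judge. IFIT2 had 25.15%, 0.00% and 0.00% in siControl and 61.2%, 10.2% and 100% in siCGGBP1, and ERAP2 reached 80.4% in siControl replicate 2.

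**Figure D4:**
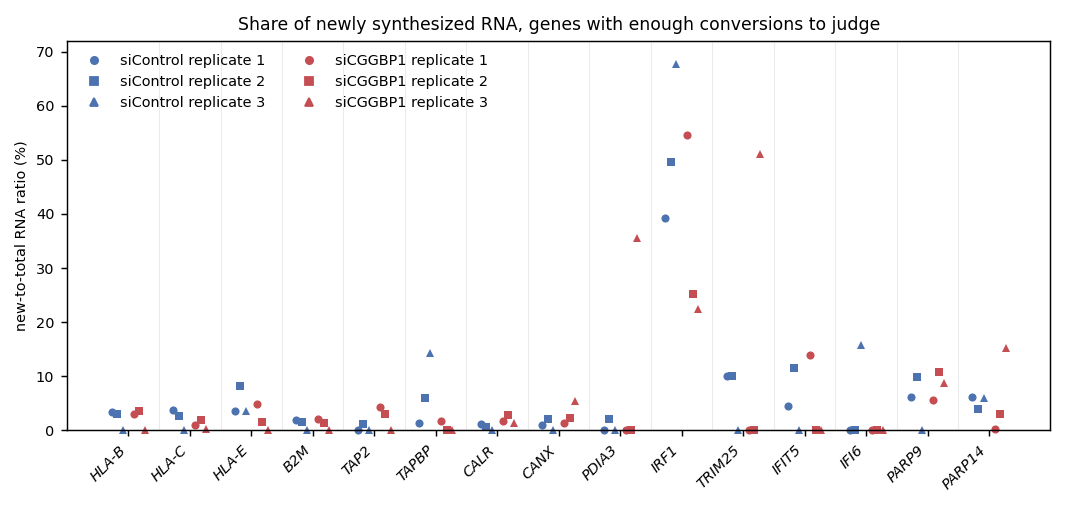
New-to-total RNA ratio (%) of the 15 genes that could be judged, 1 point per library, siControl in blue and siCGGBP1 in red. IRF1 lies between 22.5% and 67.7%, most other values are under 11%, and replicate 3 (triangles) holds both the values at 0 for HLA-B and B2M and the high values of TRIM25 (51.0%) and PDIA3 (35.6%).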

How the data were processed

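SLAM-Seq was performed with QuantSeq 3′ libraries. The authors filtered out rRNA reads with Bowtie2 2.3.0, aligned the rest to GRCh38 with STAR 2.5.3a (versions from the submitters' processing notes) and let GRAND-SLAM count reads, covered T positions and T-to-C conversions for each gene. The expected counts were deposited without normalization, and for 10864 genes the reads of at least 1 of the 6 libraries are not a whole number. The new-to-total RNA ratio was deposited by the authors as a fraction per gene and library, and its maximum a posteriori value was used. Methods name no removal of PCR duplicates, so intervals on conversions cover counting error only.

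The members and lists were chosen with earlier results of these data known. The named genes are all members and CGGBP1. Of a wider list of pathway genes only the median and counts are given, and a result that belongs to it is not reported here. Reads were rounded to whole numbers, and the 10138 genes that reached 100 reads in 3 or more of the 6 libraries were fitted with edgeR 4.0.16 in R 4.3.3 (quasi-likelihood F test, TMM, Benjamini-Hochberg adjustment over all tested genes). For new RNA, reads were multiplied by the ratio, with library sizes and TMM factors of the total reads. A call required a change beyond 2-fold (log2 above 1 or below -1) with an adjusted p under 0.05. Normalized reads are reads divided by the effective library size relative to the geometric mean of the 6 libraries, and the libraries with 0 and 200 µM 4sU were scaled by TMM over all 8. Standard errors were derived from the F statistic and the log2 fold change, and the 95% intervals use the same errors. The limit on conversions used an exact Poisson interval. Alternatives were DESeq2 1.42.0 (Wald test), other size factors, filters, call rules and measures of new RNA, a replicate block and the omission of each library. The scripts were tested on simulated data. Locations are from GENCODE 44.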

Additional observations from a re-analysis of the deposited data

Results flagged for a closer look

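The siControl library with 200 µM 4sU entered none of the fits of new RNA, and it held 0.156 conversions per 100 covered T over the 38 genes, above the 0.0424 of the library without 4sU. This is within the range of the 6 libraries with 75 µM (0.0762 to 0.175), although the dose was higher, and 55.6% of all tested genes had a new-to-total ratio of 0 in it. It has no replicate, and the difference between doses was not tested.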

How the results depend on the processing

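Of the 2 calls in total RNA, CANX held in every alternative. With DESeq2 4 members were called and 4 others got no adjusted p, and 4 were called without replicate 3 of both groups (CANX, HLA-B, HLA-C and STAT2), a choice made after seeing the data. Leaving out 1 library gave 1 to 2 calls, with HLA-B lost without siCGGBP1 replicate 1 or siControl replicate 2. In new RNA 0 members were called in all other alternatives, including DESeq2, and 1 (TRIM25) without replicate 3 of both groups. In the libraries kept there TRIM25 was lower in siCGGBP1, with ratios of 10.1% and 10.1% in siControl and 0.00% and 0.00% in siCGGBP1. In the main fit its log2 fold change of new RNA was 0.52, with siCGGBP1 replicate 3 at 51.0%. The median of the interferon-stimulated genes was 0.0538 with 5 siControl libraries. The cause was not tested.

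In total RNA, signs reversed only for interferon-stimulated genes that had not passed the test. With 5 siControl libraries the log2 fold changes were 0.0454 for IRF3, -0.0324 for IFIT1, -0.748 for IFIT3 and 0.0623 for IFITM3. Without replicate 3 of both groups they were -0.138 for IFIT1, 0.468 for IFIT5 and 0.355 for SAMHD1. Leaving out 1 library gave ranges of -0.834 to 0.231 for IRF3, -0.0232 to 1.12 for ISG15, 0.164 to 1.41 for IFIT1, -0.852 to 0.195 for IFIT5, -1.16 to 0.0257 for SAMHD1, -0.543 to 0.166 for IFITM2 and -0.337 to 0.00201 for IFITM3.

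The methods name no pairing of replicates, and the main fit used none. Same-numbered libraries correlated in their deviations at 0.108, 0.182 and 0.0884, and differently numbered ones at -0.104 to -0.0245. Each library thus correlated best with its own number, though weakly. Deviations from a group mean cancel out within the group, so the negative values follow in part from the positive ones. Whether same-numbered libraries shared a batch was not tested. With the replicate block 2 members were called in total RNA, CANX and HLA-B, and 0 in new RNA, while TAPBP (adjusted p = 0.0297) and B2M (adjusted p = 0.0269) passed 0.05 at less than 2-fold.

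Over all genes, 46 were called upward and 97 downward, 166 and 204 with DESeq2, 121 and 205 with no filter, 141 and 184 without replicate 3 of both groups, and 15 to 47 and 33 to 100 when 1 library was left out. The 95% interval, from 3 libraries a group, reached past 2-fold in at least 1 direction for 15 of 18 interferon-stimulated genes. It did so for 11 of 12 antigen presentation genes, the called HLA-B and CANX included, and for 6710 of all 10138 tested genes. The median standard error was 0.28 for the antigen presentation genes and 0.36 over all tested genes, so these counts also depend on the size of the changes.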

Other observations

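The siControl libraries with 0 and 200 µM 4sU stood apart for single members. Both were above all 6 libraries with 75 µM for 2 of 18 tested interferon-stimulated genes (IFIT3 and IFI16) and 1 of 12 antigen presentation genes (PDIA3), beside 7.88% of all tested genes, a share near that of the members. IFIT3 had 1164 normalized reads without 4sU and 680 with 200 µM, above the 182 to 398 of the 6 libraries with 75 µM, and IFI16 had 1271 and 1547 against 770 to 1261. IFIT2 and IFIH1, too low to judge elsewhere, had 447 and 219 and 226 and 124. NLRC5 went the other way, with 1.75 and 0 against 90.7 to 158, and PARP9 with 128 and 168 against 248 to 770, beside 8.02% of all tested genes. ERAP1 was high without 4sU (565) and low with 200 µM (106).

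ISG20 had 2.98 conversions per 100 covered T without 4sU, against 0.199 in siControl and 0.195 in siCGGBP1 with 75 µM. IFITM3 had 0.0986 without 4sU (95% interval 0.0674 to 0.139), against 0.0476 in siControl.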
